A study of Mus musculus with 25 samples.

Results

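Deep cortical layer neuron genes are genes that mark the pyramidal neurons of cortical layers 5, 6 and 6b. The 10 described here were chosen by symbol from 23990 genes in the deposited table, and all 10 were found: Foxp2, Tle4, Syt6, Ntsr1, Sulf1 and Rprm for layer 6, Ccn2, Nxph4 and Cplx3 for layer 6b, and Crym for layer 5. They were proposed after the spread of layer genes between these libraries had been seen, so their spread is given as a description with no test. The libraries are total RNA from prefrontal cortex of wild type C57BL/6 male mice aged 10 weeks that went through social defeat stress, exposure to an aggressor, and received vehicle (M-stress/vehicle, replicates 1 to 5). The series holds 25 samples in 6 groups (control, stress with vehicle, and stress with dihydrocaffeic acid and malvidin-glucoside, in each sex), and the columns of its table carry a letter and a digit that no label spells out. The 5 columns used here were tied to M-stress/vehicle by number: it is the only group with replicates up to 5, and 1 column letter runs up to 5. That link takes the letter to stand for the group and the digit for the replicate, and every mention of the group below rests on it. The other 20 columns were not used here, so no value below is an effect of stress, treatment or sex. Nothing in the labels says that each library came from its own mouse, so some of the spread may be technical.

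The cortex is built in layers, and the deepest ones send its output. Layer 5 neurons project to brainstem, spinal cord and striatum, most layer 6 neurons marked by these genes project to the thalamus, and layer 6b, a thin sheet derived from the embryonic subplate, lies against the white matter. In prefrontal cortex, layer 6 carries feedback to the mediodorsal and other thalamic nuclei.

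Between 34565147 and 44265039 reads per library were assigned to genes, and each member had 176 to 6136 reads in a library. CPM is the read count scaled to the library's effective size, RPKM is CPM per kilobase of exon, and errors are SDs over the 5 libraries. The excitatory neuron genes Slc17a7, the vesicular glutamate transporter, and Camk2a, a synaptic kinase, stood at 1926 ± 94.3 and 3402 ± 424 CPM (n = 5), as background for a cortical tissue label.

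Replicate 4 was the lowest library for 9 of the 10 genes. Of all 14524 genes averaging 1 CPM or more, 23.5% were lowest there. Cplx3, the exception, was lowest in replicate 5, as were 16.3% of all genes. Replicate 3 was the highest library for 6 of the 10, against 19.3% of all genes. Replicate 2 was highest for Tle4 and Rprm (16.5% of all genes), and replicate 5 for Ntsr1 and Crym (18.4% of all genes). All 10 were higher in replicate 3 than in replicate 4, as were 49.6% of all genes. In replicate 5, 9 of 10 stood above replicate 4 (49.1% of all genes) and 6 of 10 above replicate 1 (53.1%). Replicate 3 exceeded replicate 5 for 8 of 10 (51.6% of all genes), and replicate 2 exceeded replicate 1 for 9 of 10 (51.5%). In bulk tissue, fewer cells of a type and less RNA per cell cannot be told apart.

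Sequence around the start of 3 genes is shown because these genes take the 3 patterns described below: Rprm follows most layer 6 genes, Ntsr1 peaks in replicate 5, and Cplx3 follows layer 6b. RefSeq promoters (GRCm38.p6, 300 bases around the start, most of them upstream, printed in the direction of transcription) were at hand for 5 of the 10 genes, Cplx3, Ntsr1, Rprm, Syt6 and Tle4. Capitals mark GC boxes (CCGCCC on either strand).
Rprm, chr2:54085503-54085802, minus strand: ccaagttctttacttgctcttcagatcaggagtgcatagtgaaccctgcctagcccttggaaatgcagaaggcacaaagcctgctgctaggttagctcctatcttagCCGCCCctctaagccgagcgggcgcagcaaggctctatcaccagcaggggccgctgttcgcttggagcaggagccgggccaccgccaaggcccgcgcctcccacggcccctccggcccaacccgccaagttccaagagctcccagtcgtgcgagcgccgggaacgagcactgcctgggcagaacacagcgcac
Ntsr1, chr2:180499726-180500025, plus strand: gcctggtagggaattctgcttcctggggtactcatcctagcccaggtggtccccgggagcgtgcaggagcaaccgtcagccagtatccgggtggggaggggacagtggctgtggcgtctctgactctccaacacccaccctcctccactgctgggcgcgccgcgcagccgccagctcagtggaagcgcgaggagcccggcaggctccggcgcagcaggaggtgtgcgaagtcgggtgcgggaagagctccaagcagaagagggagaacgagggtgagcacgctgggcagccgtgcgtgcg
Cplx3, chr9:57606232-57606531, minus strand: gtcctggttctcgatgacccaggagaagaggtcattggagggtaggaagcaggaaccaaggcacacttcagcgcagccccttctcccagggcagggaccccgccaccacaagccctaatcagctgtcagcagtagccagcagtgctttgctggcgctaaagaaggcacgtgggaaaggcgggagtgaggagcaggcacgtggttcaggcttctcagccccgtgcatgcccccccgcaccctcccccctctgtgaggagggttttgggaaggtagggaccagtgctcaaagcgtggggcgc

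Rprm had 1 GC box and the windows of Ntsr1 and Cplx3 none, while 35.7% of 32851 RefSeq promoters of the same length held at least 1. Syt6 and Tle4 had 2 or 3 GC boxes in each of their alternative windows. The 3 windows shown were GC-rich, at 63.3% for Rprm, 68.0% for Ntsr1 and 62.7% for Cplx3, against a median of 52.7%. The TATA box (TATAAA) was in none of the 3 and in 13.6% of all promoters. The same held for the T-box core (GGTGTGA), found in 3.98% of promoters, and the forkhead core (TGTTTAC), found in 3.65%. Both were searched on either strand because Tbr1 and Foxp2 of layer 6 belong to those factor families. No match says only that these letters are not in this window.

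Among the transcriptional regulators of layer 6, Foxp2, a forkhead repressor, stood at 27.8, 33.5, 42.3, 24.3 and 34.3 CPM in replicates 1 to 5 (chromosome 6, 14901349 to 15441977, plus strand, GRCm38). The Groucho-type corepressor Tle4 stood at 87.3, 101, 99.2, 69.7 and 85.4 CPM (chromosome 19, 14448150 to 14598051, minus strand). Both were lowest in replicate 4, and Foxp2 was highest in replicate 3 while Tle4 was highest in replicate 2. Tle4 had the smallest spread of the 10, with an SD of 0.22 on the log2 scale and a fold range of 1.46 between its highest and lowest library. Foxp2 had an SD of 0.30 and a fold range of 1.74.

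Rprm encodes reprimo, a membrane protein known for arresting the cell cycle downstream of p53. Rprm stood at 106, 138, 138, 79.7 and 129 CPM (chromosome 2, 54084093 to 54085552, minus strand). Replicates 2, 3 and 5 were close to each other, and replicate 4 stood apart below them. Sulf1, an enzyme that removes sulfate from heparan sulfate outside the cell, stood at 46.6, 59.7, 70.0, 37.5 and 63.6 CPM (chromosome 1, 12692277 to 12861192, plus strand). Its order of libraries at the low end was that of Foxp2 and Rprm, with replicate 4 lowest and replicate 1 next.

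Syt6, a member of the synaptotagmin family of membrane-trafficking proteins, stood at 54.7, 68.6, 70.0, 40.0 and 55.3 CPM (chromosome 3, 103575231 to 103645569, plus strand). Replicates 2 and 3 were highest and replicate 4 lowest. Ntsr1, the high-affinity receptor of the peptide neurotensin and the gene behind a mouse Cre line widely used to reach layer 6 corticothalamic neurons, stood at 16.8, 17.0, 16.9, 9.83 and 24.3 CPM (chromosome 2, 180499976 to 180544980, plus strand). Replicates 1 to 3 were nearly equal, replicate 4 lay below them and replicate 5 above. Its fold range of 2.48 was the widest in layer 6, and it was 1.45 without replicate 4.

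The layer 6b genes had another order. Ccn2, a secreted matricellular protein formerly called connective tissue growth factor, stood at 43.5, 43.3, 53.5, 24.6 and 24.8 CPM in replicates 1 to 5 (chromosome 10, 24595442 to 24598683, plus strand). Replicates 4 and 5 were nearly equal and lay below the other 3. Nxph4, a neurexophilin that binds neurexins, stood at 8.76, 10.9, 13.4, 5.10 and 5.88 CPM (chromosome 10, 127525473 to 127534559, minus strand). Cplx3, a complexin that regulates vesicle fusion, stood at 31.8, 34.5, 38.9, 22.7 and 17.8 CPM (chromosome 9, 57599992 to 57606281, minus strand). All 3 genes were highest in replicate 3, and all 3 were lower in replicates 4 and 5 than in replicates 1 to 3. Nxph4 had the widest spread of the 10, with an SD of 0.59 on the log2 scale and a fold range of 2.63.

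Crym, the thyroid hormone-binding mu-crystallin known from layer 5 corticospinal neurons, stood at 98.7, 106, 93.4, 73.4 and 118 CPM (chromosome 7, 120186380 to 120202111, minus strand). It was lowest in replicate 4 and highest in replicate 5, as Ntsr1 was. Crym was 1.27 times as high in replicate 5 as in replicate 3, and Ntsr1 was 1.44 times as high. The other 8 genes were lower in replicate 5, from 0.94 times the replicate 3 level for Rprm to 0.44 times for Nxph4.

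**Figure D1:**
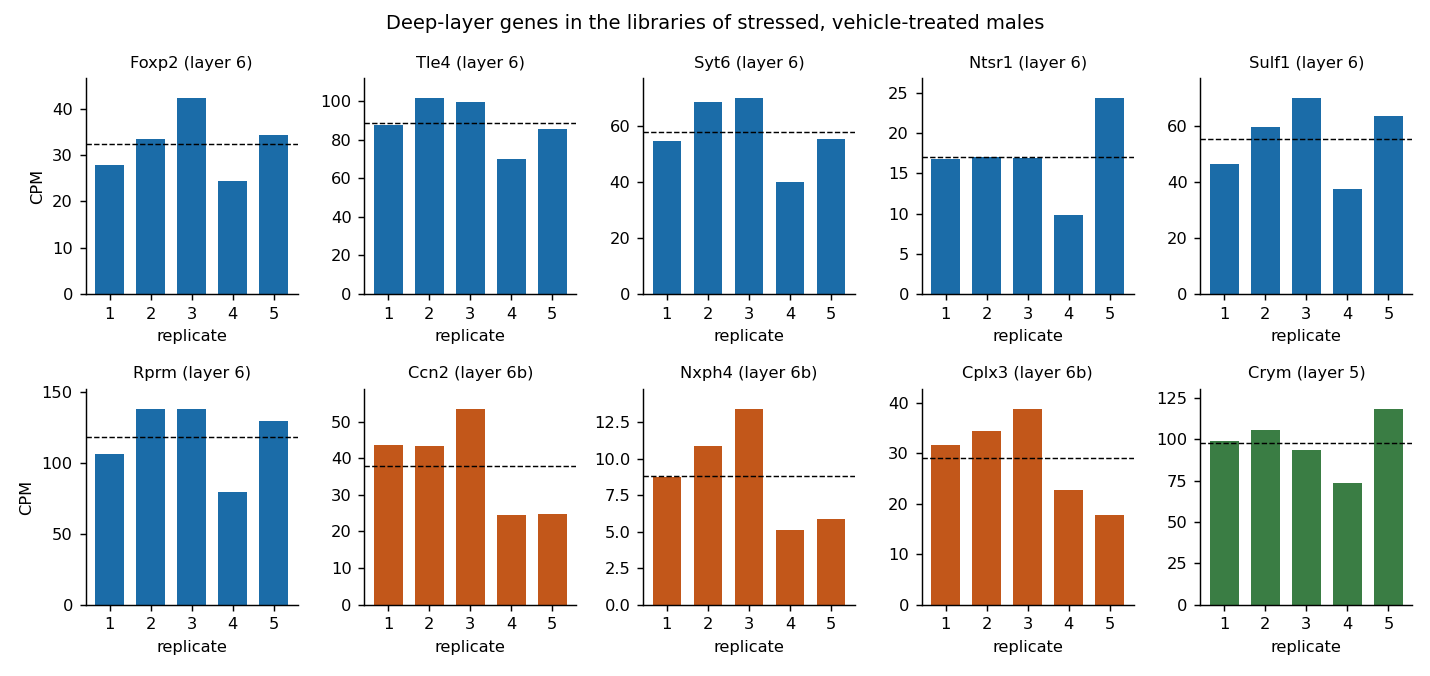
CPM (vertical axes, each from 0) of the 10 genes in replicates 1 to 5 of stressed, vehicle-treated males, 1 bar per library, with the dashed line at the mean and colours for the layer. Replicate 4 has the lowest bar in 9 panels, and in the 3 layer 6b panels replicate 5 stands near or below replicate 4.

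Per kilobase of exon, the 10 genes spanned from 80.9 ± 17.2 RPKM for Rprm to 1.98 ± 0.420 RPKM for Foxp2 (n = 5 libraries). Crym was second at 28.9 ± 4.88 RPKM, and its 5 values overlapped with those of neither neighbour in the order, Rprm above and Tle4 below. Tle4 (15.5 ± 2.23 RPKM) and Ccn2 (13.3 ± 4.46 RPKM) overlapped, as did Ccn2 and Syt6 (9.90 ± 2.10 RPKM). Syt6 and Cplx3 (9.86 ± 2.94 RPKM) had means 1.00 times apart, and Syt6 was the higher in 2 of 5 libraries. Nxph4 (5.26 ± 2.06 RPKM), Sulf1 (4.91 ± 1.17 RPKM) and Ntsr1 (4.34 ± 1.31 RPKM) changed places between libraries. Cplx3 was higher than Nxph4, and Ntsr1 higher than Foxp2, in 5 of 5 libraries, although their ranges overlapped. Exon lengths are those of all annotated transcripts together, so a gene with long alternative exons, such as Foxp2 with 16346 bases, gets a low RPKM.

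**Figure D2:**
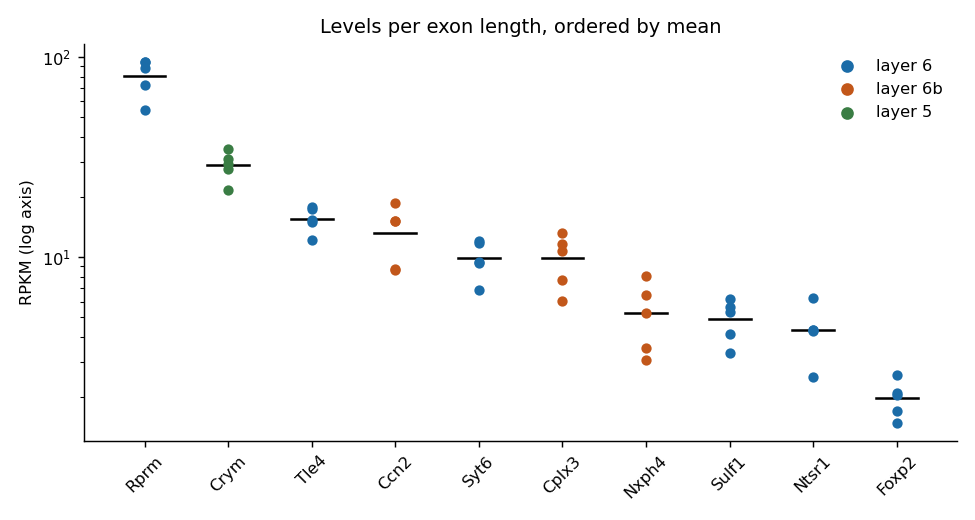
RPKM (vertical log axis) of the 10 genes, ordered by their mean, with 1 point per library of stressed, vehicle-treated males, a black bar at the mean and colours for the layer. Rprm lies highest, with its mean at 80.9 RPKM, and Foxp2 lowest at 1.98 RPKM, and the points of several neighbours overlap.

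Of 19239 genes in the table with enough reads, 74.4% varied between the 5 libraries by more than counting error allows (chi-square test, Benjamini-Hochberg threshold 0.05), so most genes differ between these libraries. The SDs of log2 CPM of the 10 genes ran from 0.22 to 0.59 with a median of 0.35, and the median over the 14524 genes of at least 1 CPM was 0.13. The median fold range between the highest and the lowest library was 1.81 for the 10 genes and 1.26 for all genes. A fold range of at least 1.5 was reached by 9 of the 10 and by 21.7% of all genes. The exception was Tle4.

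**Figure D3:**
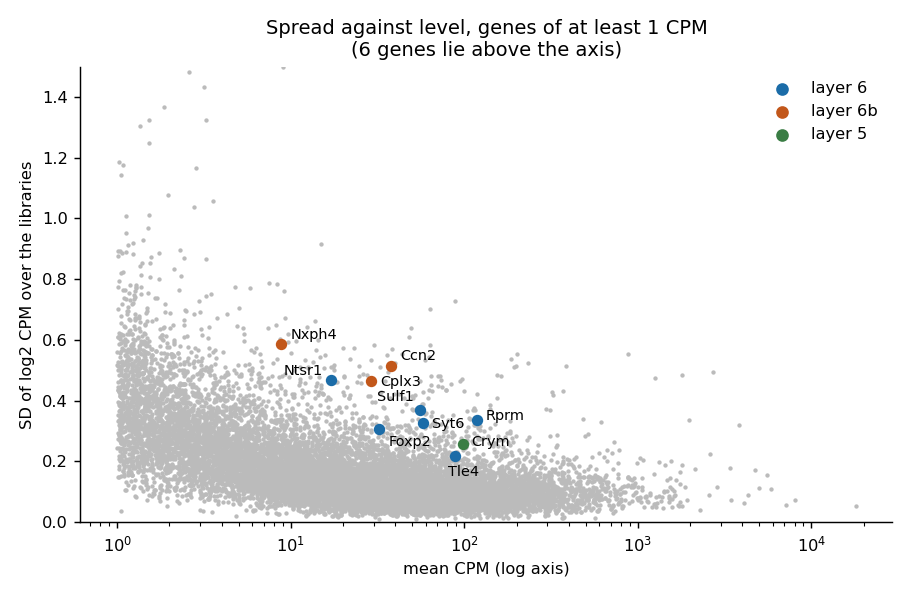
SD of log2 CPM over the 5 libraries (vertical axis) against mean CPM (horizontal log axis) for 14524 genes, with the 10 deep-layer genes coloured by layer and 6 genes above the axis not shown. The coloured points lie between 0.22 and 0.59, with the 3 layer 6b genes and Ntsr1 highest.

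Among the 10 genes, those of layer 6 and those of layer 6b differed most in replicate 5. A list score is the mean, over the genes of a list with at least 1 CPM, of log2 CPM less the gene's own mean over libraries. The layer 6 score was -0.09, 0.17, 0.26, -0.50 and 0.17 in replicates 1 to 5, an SD of 0.31. The layer 6b score was 0.18, 0.32, 0.58, -0.52 and -0.56, an SD of 0.51. Both were low in replicate 4 and high in replicate 3, and they parted in replicate 5, where layer 6 was above its mean and layer 6b below. Over all 10 genes the score had an SD of 0.32, which was 0.17 without replicate 4. For layer 6 alone the SD was 0.15 without replicate 4.

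Layer 6 minus layer 6b was -0.27, -0.15, -0.32, 0.01 and 0.73 on the log2 scale. Relative to the mean of the libraries, the ratio of layer 6 to layer 6b was thus 1.66 in replicate 5 and between 0.802 and 1.01 in the other 4. The SD of this difference was 0.43, and 0.15 without replicate 5. Pairs of genes were compared by the root mean square (RMS) of the difference between their centred log2 profiles over 5 libraries. That distance had a median of 0.16 over the 15 pairs within layer 6, 0.14 over the 3 pairs within layer 6b and 0.38 over the 18 pairs across them. The closest pair was Sulf1 and Rprm at 0.091, and the most distant was Ntsr1 and Cplx3 at 0.62. Crym lay at a median of 0.22 from layer 6 genes and 0.50 from layer 6b genes. Within layer 6, Ntsr1 stood apart, at 0.25 from Rprm and 0.34 from Tle4, and it was closer to Crym of layer 5 (0.20) than to any layer 6 gene. Crym, the only layer 5 gene among the members, was thus not separated from the layer 6 genes by this distance. The ranges within layer 6 (0.091 to 0.34) and across layers 6 and 6b (0.29 to 0.62) overlapped. These distances share the same 5 libraries and are no test.

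Other genes of deep layers gave scores with smaller spreads. Of 9 other layer 6 genes 8 reached 1 CPM, and their score was -0.07, 0.25, 0.14, -0.32 and 0.00 in replicates 1 to 5 (SD 0.22), with 5 of 8 genes lowest in replicate 4 and 23.5% of all genes lowest there. Tbr1, the T-box factor of layer 6, stood at 232 ± 21.1 CPM, and Grik3, a kainate receptor subunit, at 226 ± 32.2 CPM (n = 5). Hs3st4, a heparan sulfate sulfotransferase, stood at 127, 161, 162, 99.9 and 134 CPM, with replicate 4 lowest. Col5a1, a collagen gene, was the most variable at 86.3, 89.3, 59.3, 26.7 and 56.4 CPM.

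Of 5 other layer 6b and subplate genes, 4 were lowest in replicate 4, and the score was 0.10, 0.10, 0.19, -0.27 and -0.12. Lpar1, a lysophosphatidic acid receptor that oligodendrocytes also express, led at 43.1, 39.6, 49.1, 24.7 and 29.6 CPM. Tmem163, a zinc transporter, stood at 14.6, 15.7, 18.7, 12.2 and 11.9 CPM, and its replicates 4 and 5 were lowest, as for the 3 layer 6b genes above. The other layer 6 score minus the other layer 6b score was -0.17, 0.15, -0.06, -0.04 and 0.12 in replicates 1 to 5. These 2 lists thus did not repeat the wide gap that the members had in replicate 5.

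The layer 5 list of 14 genes did not share this order. Its score lay between -0.09 and 0.08 (SD 0.08). In replicate 4, 2 of 14 genes were lowest (23.5% of all genes) and 5 were highest (26.8% of all genes). Single genes of the list spread more than the score, with a median SD of log2 CPM of 0.20, against 0.13 over all genes of at least 1 CPM. The transcription factor Bcl11b stood at 118 ± 9.74 CPM and the cofactor Ldb2 at 81.2 ± 5.88 CPM, while Tcerg1l varied most, at 9.41 ± 1.96 CPM (n = 5). Layer 6 minus this list was -0.59 in replicate 4 and between 0.00 and 0.27 in the others. Crym minus this list was -0.48 in replicate 4. The RMS distance from the layer 6 score was 0.31 for this list and 0.17 for Crym, so Crym does not stand for the list. The score of excitatory genes of all layers also spread little, between -0.12 and 0.07 over 8 genes, and was highest in replicate 4.

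Upper-layer genes stood the other way. Of 12, 10 were highest in replicate 4, against 26.8% of all genes, and their score was 0.01, -0.25, -0.38, 0.52 and 0.11 in replicates 1 to 5. Rasgrf2, a Ras exchange factor, stood at 78.9, 66.1, 55.1, 123 and 97.2 CPM, and Otof, a vesicle fusion protein, at 18.2, 10.9, 4.64, 19.0 and 21.8 CPM. Layer 6 minus the upper-layer list was -1.02 in replicate 4 and 0.64 in replicate 3. Each upper-layer gene was lower in replicate 3 than in replicate 4, whereas each of the 10 deep-layer genes was higher.

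Oligodendrocyte genes moved with the 3 layer 6b members. The 8 genes all had reads in every library, and their summed level was 4263.5 to 9308.2 CPM, lowest in replicate 4. Their score was 0.33, 0.09, 0.59, -0.55 and -0.46, against 0.18, 0.32, 0.58, -0.52 and -0.56 for layer 6b. The RMS distance was 0.13 between the layer 6b members and oligodendrocyte genes and 0.37 between the layer 6 members and oligodendrocyte genes. The list of other layer 6b and subplate genes lay farther away, at 0.28 from oligodendrocyte genes and 0.30 from the layer 6b members. Myelin basic protein, Mbp, stood at 3112, 2853, 3991, 1857 and 1809 CPM, highest in replicate 3 and lowest in replicates 4 and 5. The part of oligodendrocyte content in the layer 6b values was not tested.

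**Figure D4:**
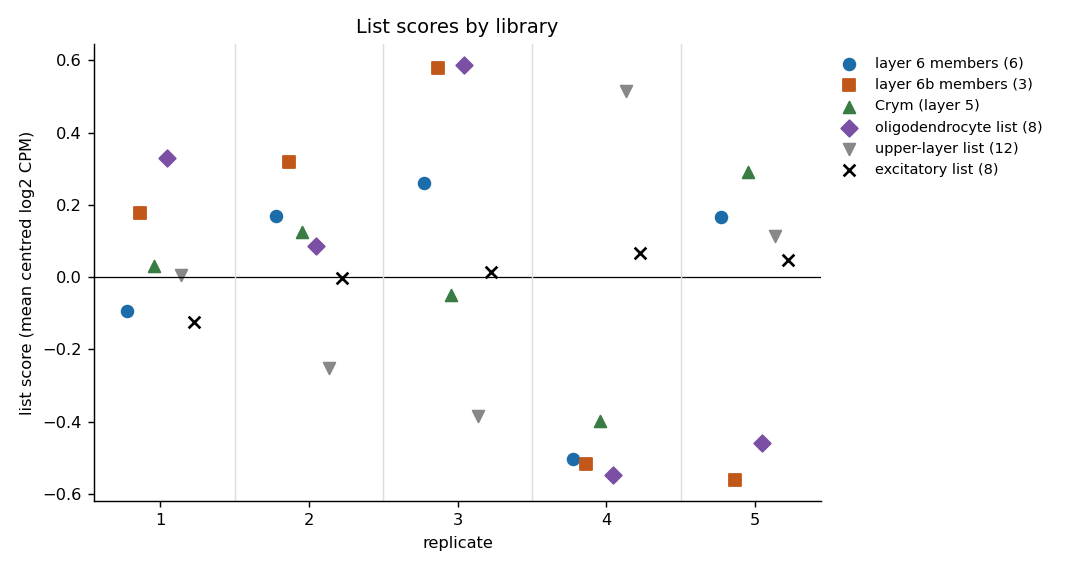
List scores (vertical axis, mean centred log2 CPM) in replicates 1 to 5 for layer 6, layer 6b, Crym and 3 comparison lists, with the number of genes in brackets and 1 point per library. The layer 6b squares lie near the oligodendrocyte diamonds in replicates 3 to 5, and in replicate 5 layer 6 is at 0.17 with layer 6b at -0.56.

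Some members are also known from other cells. Ccn2 is made by fibroblasts and endothelial cells elsewhere in the body. The 10 leptomeningeal and fibroblast genes summed to 46.5 to 114.6 CPM, highest in replicate 4, where Ccn2 was at its lowest, and Igf2, the most abundant of them, stood at 24.8 ± 8.67 CPM (n = 5). Endothelial genes had a score between -0.08 and 0.09. Foxp2 and Crym are also expressed by striatal projection neurons. The 12 striatal genes summed to 502.3 to 594.4 CPM. Their score, over the 11 that averaged 1 CPM or more, was highest in replicate 3. Foxp2 was also highest there, while Crym, at 93.4 CPM, was below its mean of 97.9 CPM. All 12 had reads in every library. The adenylyl cyclase gene Adcy5 and the phosphatase inhibitor gene Ppp1r1b were the most abundant, at 226 ± 15.9 and 110.1 ± 21.6 CPM (n = 5). The least abundant were Gpr6, Drd2 and Adora2a, at 0.909 ± 0.422, 1.80 ± 0.517 and 4.25 ± 0.723 CPM. Cplx3 is also found in Lamp5 interneurons. Lamp5 stood at 52.9, 43.5, 56.3, 119 and 47.0 CPM, highest in replicate 4. It is also in the upper-layer list, most of which was highest there, so its level is not a reading of interneurons alone. Inhibitory genes scored between -0.05 and 0.05 (SD 0.05), but single inhibitory genes spread more, with a median SD of log2 CPM of 0.15. In replicates 4 and 5 Pvalb stood at 64.5 and 33.0 CPM, and Sst, the other way, at 249 and 369 CPM. Astrocyte genes scored between -0.13 and 0.23, microglia genes between -0.10 and 0.12 and claustrum genes between -0.07 and 0.07. The part of these cells in the members' values was not tested.

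Genes with profiles nearest to the scores were ranked by RMS distance among genes of at least 10 CPM outside the 10. Nearest to layer 6 were Prss35 (0.055), Drd1 (0.072), Jup (0.072), Sdk2 (0.074), Prss12 (0.080), Fancd2 (0.087), Hs3st4 (0.091) and Arhgap25 (0.093). Drd1, the D1 dopamine receptor that is also in the striatal list, stood at 23.3, 25.1, 30.0, 18.2 and 27.1 CPM, and Prss12, the synaptic protease neurotrypsin, at 53.7, 62.0, 68.2, 45.8 and 65.5 CPM. Both were lowest in replicate 4 and highest in replicate 3. The same ranking for layer 6b was added after its values were seen. Among its 8 genes were Nkx6-2 (0.082), Hapln2 (0.089), Mbp (0.095), Mag (0.095), Plekhg3 (0.096), Anln (0.098) and Aspa (0.10). Mbp and Mag were in the oligodendrocyte list, and Aspa, the enzyme that breaks down N-acetylaspartate, is known from the same cells. Likeness over 5 libraries is a description of these libraries.

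**Figure D5:**
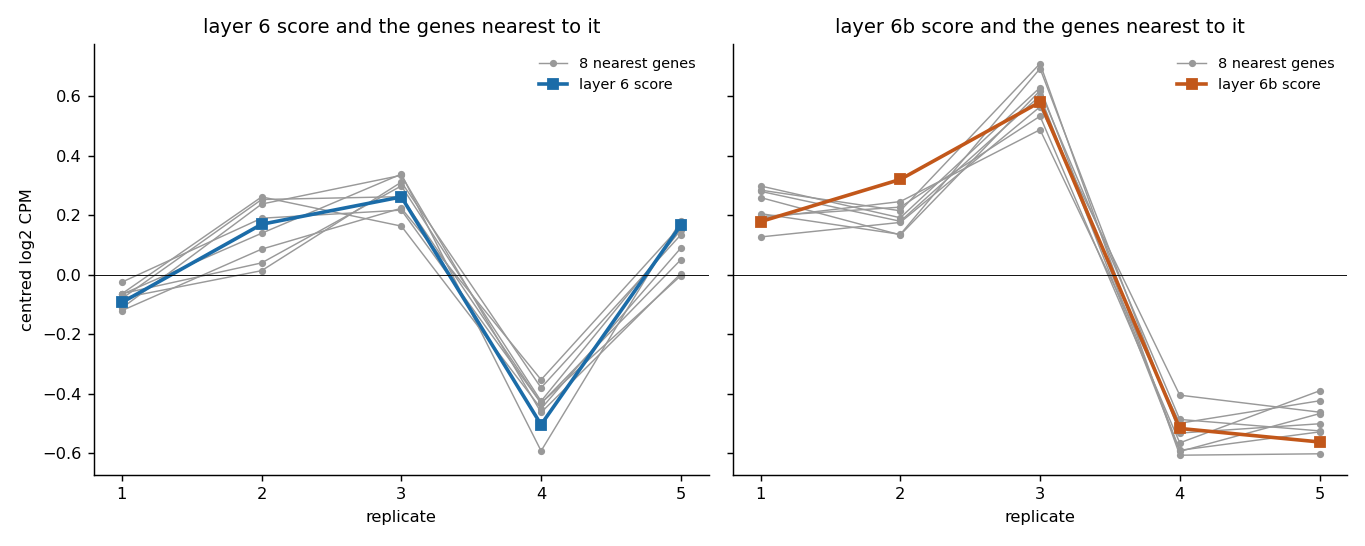
Centred log2 CPM (vertical axis) in replicates 1 to 5 of the layer 6 score (left, blue) and the layer 6b score (right, orange), each with the 8 genes nearest to it in grey, where lines join the values of 1 gene or score. The left profiles are lowest in replicate 4, at -0.50 for the score, and the right profiles are low in replicates 4 and 5, at -0.52 and -0.56.

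Within their gene families the 10 were seldom the most abundant, with levels given in RPKM. Foxp2 (1.98 ± 0.420) stood below Foxp4 (11.6 ± 0.918) and Foxp1 (6.18 ± 0.853). Tle4 (15.5 ± 2.23) led Tle2 (5.10 ± 1.05), Tle3 (4.02 ± 0.268), Tle1 (3.35 ± 0.439) and Tle6 (1.02 ± 0.182), and the short family member Tle5, annotated as Aes, stood above it at 147 ± 6.44. Rprm (80.9 ± 17.2) was above its relative Rprml (55.4 ± 3.35). In the sulfatase pair, Sulf1 (4.91 ± 1.17) was below Sulf2 (27.0 ± 1.83). Their log2 SDs were 0.37 for Sulf1 and 0.10 for Sulf2, and 0.34 for Rprm and 0.09 for Rprml.

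Among vesicle proteins, Cplx3 (9.86 ± 2.94 RPKM) stood far below the general complexins Cplx1 (290.2 ± 43.0) and Cplx2 (290.2 ± 37.8). Syt6 (9.90 ± 2.10 RPKM) stood below the calcium sensor of fast release Syt1 (183 ± 18.2 RPKM) and below Syt11 (178 ± 8.55), Syt5, Syt13, Syt7, Syt4 and Syt3, which ran from 89.0 to 16.9 RPKM. It was above Syt17, Syt2, Syt12, Syt9 and Syt10, from 7.37 to 2.01 RPKM. Among ligands of neurexins, Nxph4 (5.26 ± 2.06 RPKM) was below Nxph3 (49.2 ± 11.7) and Nxph1 (7.56 ± 0.293) and above Nxph2 (1.42 ± 0.373). Nxph3 stood at 99.7, 121, 132, 68.3 and 96.3 CPM, and like Nxph4 was highest in replicate 3 and lowest in replicate 4. The neurexins Nrxn2 and Nrxn3 were at 31.1 ± 2.27 and 17.0 ± 1.70 RPKM.

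In the neurotensin system, Ntsr1 (4.34 ± 1.31 RPKM) stood below the low-affinity receptor Ntsr2 (27.9 ± 2.74), known from astrocytes, and the sorting receptor Sort1 (59.8 ± 6.32). The peptide's own gene Nts was at 0.543 ± 0.219 RPKM (0.502 to 1.15 CPM). Ccn2 (13.3 ± 4.46 RPKM) was below Ccn3 (31.4 ± 5.18) and above Ccn1 (1.93 ± 0.254) and Ccn4 (1.62 ± 0.254). Ccn3 was lowest in replicate 3, where Ccn2 was highest. Crym (28.9 ± 4.88 RPKM) is a hormone-binding protein, and of the other thyroid hormone genes the receptors Thra and Thrb were at 166 ± 18.3 and 8.25 ± 0.963 RPKM, the deiodinase Dio2 at 13.2 ± 1.45 and the target and corepressor Hr at 4.77 ± 1.27. Thra, like Crym, was lowest in replicate 4 and highest in replicate 5.

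A gene on the other strand shares exon sequence with 2 of the 10, and whether reads were counted by strand is not given in the sources used here. Gm15270 covers 23.2% of the Ccn2 exons and stood at 0.247 to 0.968 CPM. Atg4a-ps, a pseudogene, covers 8.67% of the Syt6 exons and stood at 0 to 0.269 CPM. Both levels were far below those of Ccn2 and Syt6, and the effect of the shared sequence on the counts of these 2 genes was not tested.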

How the data were processed

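The table deposited by the authors holds log2 values per Ensembl gene. The submitters' processing notes name builds mm10 and GRCm38 and the tools edgeR, featureCounts, Subread 1.6.3, STAR 2.6.1d and SAMtools 1.9. Strand setting, annotation release and any gene filter: not given in the sources used here. The values were read as log2 CPM computed with 0.5 reads added and an effective library size, since 100% of values gave whole reads within 1e-06. Effective sizes were between 0.998 and 1.04 of the read totals, and 3 reads are 0.0673 to 0.0870 CPM, which covers counting error only. The 5 columns used were tied to a group because 1 column letter and 1 labelled group run up to 5, and 20 other columns were not used.

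Reads, CPM and RPKM (union exons, GENCODE M21, symbols for 23856 identifiers) were computed with matplotlib 3.10.9, scipy 1.17.1, pandas 2.3.3 and numpy 2.4.6 in Python 3.11.15. The chi-square test that reads follow effective library size (4 degrees of freedom) was run on all genes with a mean of 5 reads or more. The members and all lists (13 cell type lists and 10 families) were chosen with earlier results of these data known. Names were drawn from the 2 most abundant genes and the most variable one of each cell type list, the genes of at least 1 RPKM in each family, and the 8 genes nearest to the layer 6 score. Genes named beyond this rule, such as Nts, were chosen after their values were seen. Cplx4 was not matched, and some genes that this rule names are not reported here. Tried as alternatives were median-of-ratios scaling, total-read scaling, 2 reads added before the log, a minimum of 10 CPM, other read minimums and leaving out each replicate. Layer 6b without Ccn2 was added after seeing the data.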

Additional observations from a re-analysis of the deposited data

Results flagged for a closer look

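Of 118 genes and scores examined, 3 had 1 library that Dixon's ratio sets apart from the rest, and chance flags about 1 in 20, or 5.9 here. None was a deep-layer gene or score. Lamp5, a gene of upper layers and of some interneurons, reached 119 CPM in replicate 4 against 43.5 to 56.3 CPM elsewhere, a ratio of 2.39 to their mean. Ccn1 reached 4.81 CPM in replicate 1 against 3.61 to 3.77 CPM elsewhere, a ratio of 1.31. The striatal projection neuron score was 0.21 in replicate 3 against -0.10 to -0.02 elsewhere, a difference of 0.26 on the log2 scale.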

How the results depend on the processing

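No paired analysis was possible because columns could be tied to 1 group only. When each replicate was left out in turn, the SD of the score over all 10 genes ran from 0.17 (without replicate 4) to 0.36, that of layer 6 from 0.15 (without replicate 4) to 0.35, and that of layer 6 minus layer 6b from 0.15 (without replicate 5) to 0.49. The layer 6b SD ran from 0.46 to 0.58. With the 2 other scalings, 2 reads added, a minimum of 10 CPM or layer 6b without Ccn2, these SDs stayed within 1.5 times the values reported. Layer 6 minus layer 6b in replicate 5 was 0.65 to 0.76 over all settings in which it could be computed. A scaling factor cancels in that difference, so the scalings could not move it. The minimum of 10 CPM dropped Nxph4 alone, so it could not move the layer 6 score. The scalings moved the median gene by at most 0.039 on the log2 scale. Among 80 recomputed fold ranges of single genes, 79 stayed within 1.5 times, and that of Ntsr1 was 1.45 without replicate 4. All 70 recomputed mean levels moved by less than their SD. With a replicate left out this was bound to hold, since leaving out 1 of 5 values cannot move a mean by their SD. Genes beyond counting error numbered from 12646 of 19260 tested (without replicate 1) to 15802 of 23084 tested (minimum of 1 read), against 14308 of 19239 as reported. Nxph4, with 176 to 598 reads, has the least depth of the 10. With 5 libraries of 1 group, the files bear on the spread between libraries alone.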
